A study of Arabidopsis lyrata with 12 samples.

Results

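Body 5mC domains are stretches of methylated DNA that lie inside genes carrying the chromatin of transcription. The data come from young leaves of Arabidopsis lyrata accession MN47, grown in soil with 16 hours of light and 8 hours of dark at 22.5 °C. Methylated DNA was precipitated with an antibody against 5-methylcytosine (5mC) and sequenced from 2 libraries. Chromatin was precipitated for H3K4me3, H3K27me3 and H3K27me1, which are trimethylation of histone H3 at lysine 4 and trimethylation and monomethylation at lysine 27, with 2 libraries each. The mRNA was sequenced from 1 library. For each mark the deposited data hold a single list of enriched domains, and for mRNA a single mean exon coverage per gene, so no value below has a replicate error and no difference could be tested over samples.

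A body 5mC domain was a deposited 5mC domain that lay wholly inside the span of exactly 1 listed gene. That gene had at least 200 bp of H3K4me3 domains and 0 bp of H3K27me3 and H3K27me1 domains. The rule found 1109 domains among the 33531 of the 5mC list (3.31%), and they covered 474 kb, or 1.07% of the base pairs under 5mC. They lay in 1012 genes, called host genes here. The members were chosen by the positions in the 5mC, H3K4me3, H3K27me3 and H3K27me1 lists and by the gene spans, whereas mRNA coverage, domain score, domain place within the gene and gene surroundings beyond the span were not used. The label "transcribed" was checked against the mRNA table. Host genes had a median coverage of 9.90, against 7.02 over all 24268 listed genes. All 16312 genes with the same H3K4me3 and H3K27 criteria, hosts included, had a median of 10.2, so host genes were not raised among them. Of the host genes, 7 stood at exactly 1, the lowest value of the table. Among genes with the same H3K4me3 and H3K27 criteria, 0.834% stood at exactly 1, and among host genes 0.692% did.

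Cytosine methylation is best known in plants from transposons and repeats, where it goes with silencing. Many transcribed genes also carry it in their bodies. In Arabidopsis thaliana such gene body methylation sits almost wholly at CG sites, is kept through replication by the methyltransferase MET1, and tends to occur in long genes of moderate, steady expression, away from the transcription start and end. H3K4me3 marks the 5′ part of transcribed plant genes. An antibody against 5mC does not tell CG sites from other cytosines, so the sequence context of the methylation reported here is unknown. No genome sequence of the files' build was used here, so the sequence of the domains is not shown, and gene names are absent because the files do not pair identifiers with names.

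Body 5mC domains were short. The median body domain measured 300 bp, with quartiles of 150 and 600 bp. Of the body domains 639 (57.6%) measured 300 bp or less, where 31.8% of all 5mC domains did. Domain edges in this list lie on a grid of 150 bp, so 278 body domains (25.1%) had the smallest possible width and 361 (32.6%) the next. Widths above 900 bp were found in 51 body domains (4.60%), against 11403 of the 30715 5mC domains not wholly inside a listed gene (37.1%), whose median width was 600 bp. The 1688 5mC domains wholly inside exactly 1 other listed gene also had a median of 600 bp, and 26.1% of them exceeded 900 bp. The span of the gene limits the width of a domain inside it. Spans of those other genes were not compared with those of host genes, so the part of this limit in the widths was not tested.

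Among those other genes, the width went with the histone mark of the gene. The 1128 domains in genes with H3K27me1, a mark of heterochromatin in plants, measured 750 bp at the median, with quartiles of 300 and 1350 bp, and 35.6% of them exceeded 900 bp. The 384 in genes with H3K27me3 and no H3K27me1 had a median of 300 bp (quartiles 300 and 600 bp), and 5.47% exceeded 900 bp. The 176 in genes with neither H3K27 mark but less than 200 bp of H3K4me3 also had a median of 300 bp (quartiles 300 and 600 bp). Of these, 9.66% exceeded 900 bp. Both medians equal that of the body domains. In these groups, in order, 55.2 and 51.7% measured 300 bp or less, beside 57.6% of body domains.

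**Figure D1:**
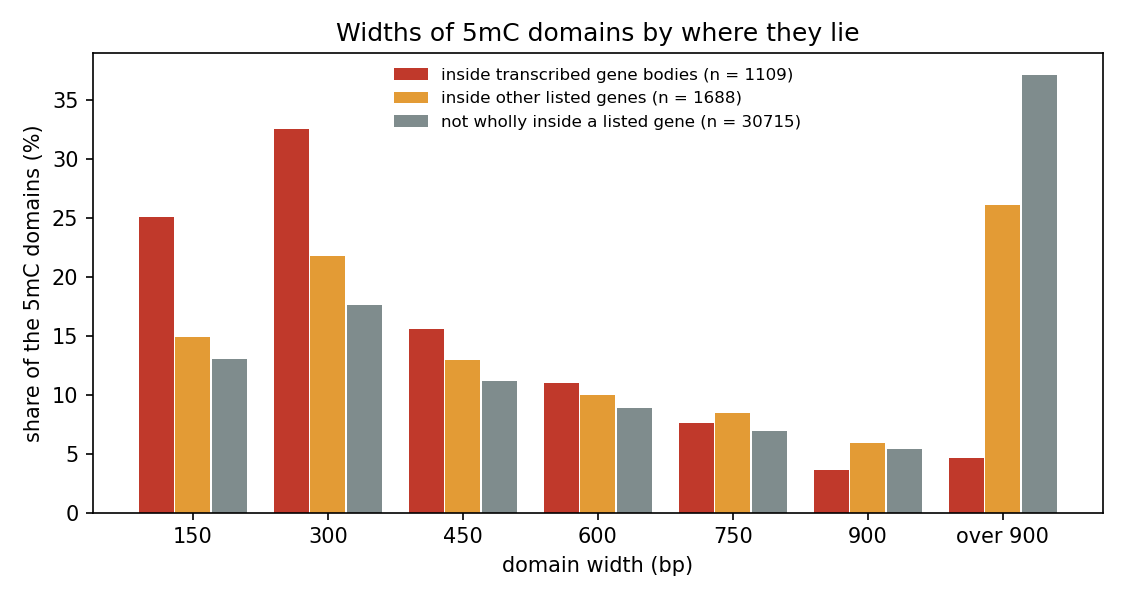
Share of 5mC domains (vertical axis, percent) by domain width (horizontal axis, bp) for domains inside transcribed gene bodies, inside other listed genes and not wholly inside a listed gene. Body domains stand highest at 150 and 300 bp (25.1 and 32.6%) and lowest above 900 bp (4.60%).

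The widest body domains filled large parts of their genes. The widest, 3.75 kb on scaffold 29 (56251 to 60000), took 62.9% of a gene of 5961 bp and shared 450 bp with H3K4me3. The next 3 were each 2.85 kb wide. One began at the first base of scaffold 315 and filled 90.7% of a gene of 3141 bp. Another lay on scaffold 120 (3001 to 5850) and filled 50.1% of a gene of 5689 bp, and the last lay on scaffold 3 (5913451 to 5916300) and filled 45.7% of a gene of 6231 bp. The mRNA coverage of these 4 genes was 12.7, 4.49, 4.71 and 3.54. The first 3 domains touched H3K4me3, and the one on scaffold 3 lay 150 bp beyond it with a score per bp of 0.848. The median body domain covered 9.90% of its gene (quartiles 5.79 and 18.2%).

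The deposited score divided by the domain width was used as a measure of enrichment within a domain. What the authors' score counts is not stated, but it is a whole number that increases with width. Body domains had a median of 1.22 per bp (quartiles 0.933 and 1.57), against 1.11 for all other 5mC domains (quartiles 0.884 and 1.43). In the top 25% of all 5mC domains by score per bp, above 1.44, stood 366 body domains (33.0%), where 24.9% of all 5mC domains stood. In genes with H3K27me3 and no H3K27me1 the share was close to that of body domains, 32.03%, with a median of 1.17 per bp. In genes with H3K27me1 it was 24.91% (median 1.09), and in genes with neither H3K27 mark but less than 200 bp of H3K4me3 27.3% (median 1.05). The 95% order-statistic interval of the median, which covers the number of domains and nothing else, was 1.17 to 1.25 for body domains and 1.107 to 1.118 for all other 5mC domains. It was 1.11 to 1.23 for domains in genes with H3K27me3 and no H3K27me1, which overlaps that of body domains.

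Body domains stood above the domains outside genes at each width. Among domains of 150 bp the median score per bp was 1.18 for body domains and 1.07 for domains not wholly inside a listed gene. At 300 bp the values were 1.13 and 1.03, and at 450 bp 1.22 and 1.03. At 600 bp they were 1.24 and 1.03, and at 750 bp 1.38 and 1.09. At 900 bp, where 40 body domains remained, they were 1.69 and 1.09. Domains inside other listed genes had medians between 1.04 and 1.14 over these widths, and the gap to body domains was 0.04 at 150 bp and 0.60 at 900 bp. The quartiles of all these groups overlapped.

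Score per bp was highest in the body domains that touched H3K4me3, but it was not raised in these alone. Of the body domains, 222 shared sequence with an H3K4me3 domain (20.0%, exact interval 17.7 to 22.5%), where 3.85% of all 5mC domains did. Among 5mC domains wholly inside exactly 1 other listed gene 5.45% did. By group, this was 9.64% in genes with H3K27me3 and no H3K27me1 and 4.70% in genes with H3K27me1. In genes with neither H3K27 mark but less than 200 bp of H3K4me3 it was 1.14%. The rule requires at least 200 bp of H3K4me3 in the gene of a body domain, which favours such contact. These 222 body domains had a median score per bp of 1.54 (quartiles 1.197 and 1.95). Those beyond H3K4me3, the largest class, had 1.16 (quartiles 0.913 and 1.5). The difference was present at each width. Touching domains had 1.45 at 150 bp, 1.41 at 300 bp, 1.56 at 450 to 600 bp and 1.63 at 750 bp or more, against 1.16, 1.10, 1.11 and 1.24 for all body domains that did not touch H3K4me3. The 5mC domains inside other genes had 1.14, 1.06, 1.08 and 1.11 over the same widths. Domains not wholly inside a gene and not touching H3K4me3 had 1.07, 1.03, 1.02 and 1.17, below both groups of body domains at each width.

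The same contrast was seen outside gene bodies, except at the smallest width. Among 5mC domains not wholly inside a gene, those touching H3K4me3 had a median score per bp of 1.33 at 300 bp (57 domains), 1.33 at 450 to 600 bp (123) and 1.33 at 750 bp or more (781). Those not touching it had 1.03, 1.02 and 1.17. At 150 bp the 13 touching domains had 1.05, and the others 1.07. Input libraries were not used here.

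**Figure D2:**
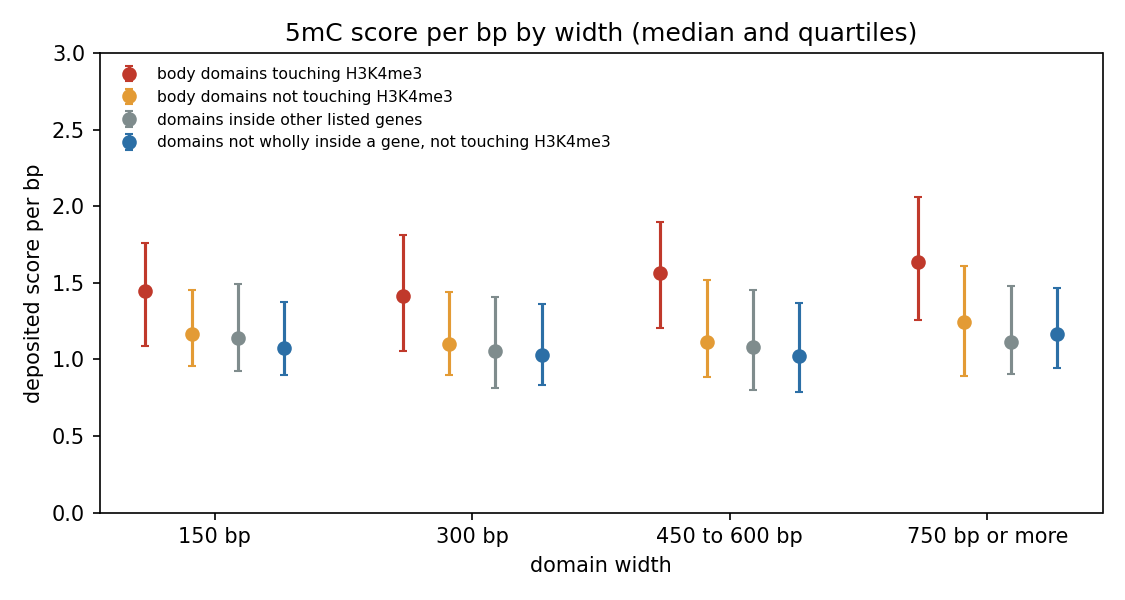
Deposited 5mC score per bp (vertical axis) by domain width (horizontal axis) for body domains touching and not touching H3K4me3, domains inside other listed genes, and domains outside genes that do not touch H3K4me3. Points are medians and bars quartiles over domains; body domains touching H3K4me3 stand highest at each width, from 1.41 to 1.63.

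Dense domains were found with and without contact to H3K4me3. From the least to the most dense 25% of body domains by score per bp, 9.35, 12.3, 19.5 and 38.99% touched H3K4me3. The 3 with the highest score per bp among those of at least 300 bp nevertheless all lay beyond H3K4me3. The first, 750 bp on scaffold 4 (1280701 to 1281450), had 6.28 per bp and ended 24 bp before the far end of a gene of 5837 bp with a coverage of 6.43. The second, 750 bp on scaffold 3 (2958301 to 2959050), had 5.49 per bp in a gene of 2899 bp with a coverage of 7.45. The third, 600 bp on scaffold 3 (2662801 to 2663400), had 4.85 per bp in a gene of 4914 bp with a coverage of 10.8. They lay 2400, 1200 and 3150 bp from the H3K4me3 of their genes, in each case on the side of the far end. The 25 of the 1109 body domains with a score per bp of at least 3 had host genes with a median coverage of 10.7, beside 9.90 for all host genes. The share of all 5mC domains at this score per bp was not computed, so whether such domains are frequent here is not known.

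Body 5mC lay mostly downstream of H3K4me3, if H3K4me3 is taken to mark the start of the gene. The files give no strand, so each host gene was turned so that the end nearer to the centre of its H3K4me3 base pairs came first, and this end is called the H3K4me3-bearing end. Beyond H3K4me3, toward the far end, lay 785 domains (70.8%, exact interval 68.0 to 73.4%). Between separate H3K4me3 domains of the same gene lay 80 (7.21%), and ahead of H3K4me3, at the end that bears it, 22 (1.98%). In genes with H3K4me3 within 500 bp of exactly 1 end, where the turn is least in doubt, 737 of 946 (77.9%) lay beyond it and 5 ahead of it. H3K4me3 close to one end leaves little room ahead of it, so these counts also reflect where H3K4me3 lies.

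By base pairs, body 5mC lay under H3K4me3 less than the host genes as a whole did. Of the body 5mC base pairs 13.2% lay under H3K4me3, against 23.5% of the host gene spans. Body 5mC itself covered 12.4% of the host gene spans. The 222 touching domains shared a median of 300 bp with H3K4me3. Of these, 147 (66.2%) reached past its far edge only, 62 lay wholly under H3K4me3, 10 reached past its near edge only and 2 past both edges. Touching domains were wider, with a median of 450 bp against 300 bp beyond H3K4me3, and a wider domain reaches a neighbour more readily. The share that touched was 10.8% at 150 bp, 11.4% at 300 bp, 24.4% at 450 to 600 bp and 45.1% at 750 bp or more.

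The 887 domains that did not touch H3K4me3 had a median gap of 750 bp to it (quartiles 150 and 1500 bp, highest 15150 bp). Direct contact, with a gap of 0 bp, was found in 106 of them (11.95%), and 275 (31.0%) lay 150 to 450 bp away. Their median scores per bp were 1.34 in contact, 1.15 at 150 to 450 bp and 1.09 at 600 to 1050 bp. Farther out they were 1.13 at 1200 to 2100 bp and 1.09 beyond that, so the higher values stood within the nearest classes.

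Along the gene, body 5mC was sparse near the H3K4me3-bearing end. Over the rest of the gene its place differed between short and long genes, so the values for all genes pool unlike patterns. To remove the effect of width, the place of a domain was given as a share of the free room, the gene span minus the domain width. The room was cut into steps of 20%, and even placement would put 20% of the domains in each. The first step, next to the H3K4me3-bearing end, held 94 domains (8.48%, exact interval 6.90 to 10.3%). The next steps held 245 (22.1%), 270 (24.3%), 232 (20.9%) and 268 (24.2%), in order toward the far end. In base pairs, body 5mC covered a mean of 2.56% of host genes between 5 and 10% of the span, 22.5% between 50 and 55%, and 9.65% between 90 and 95%. The low value at the far end includes the requirement that domains end inside the gene.

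The asymmetry was seen at the ends themselves. Among the 950 body domains in genes of at least 2 kb, 172 (18.1%) came within 500 bp of the far end and 58 (6.11%) within 500 bp of the H3K4me3-bearing end, 1 of them at both. Within 150 bp of the end, over all 1109 domains, the counts were 77 at the far end and 16 at the H3K4me3-bearing end. The median distance was 1157 bp to the far end and 1437 bp to the H3K4me3-bearing end. In genes over 6 kb the order was reversed, with 4036 bp to the far end and 3653 bp to the H3K4me3-bearing end. In each class of shorter genes the far end was the nearer one, by 1460 against 1539 bp at 3 to 4 kb. Since the turn of each gene was set by H3K4me3 and not by strand, these ends are not annotated starts and stops.

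**Figure D3:**
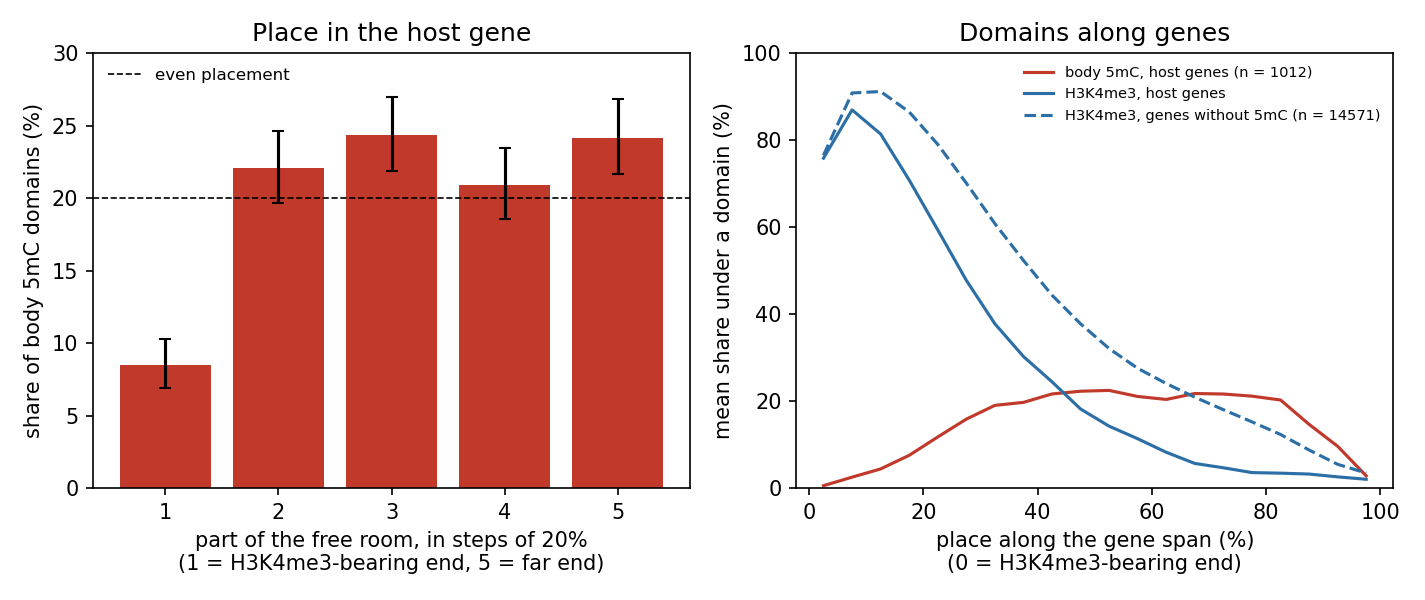
Left: share of body 5mC domains (percent, bars, with exact 95% intervals that cover counting error only) in each step of 20% of the free room from the H3K4me3-bearing end; the dashed line is even placement (20%), and the first step holds 8.48%. Right: mean share of the gene under a domain (percent) along the span in steps of 5%; body 5mC in host genes reaches 22.5% in the middle, and H3K4me3 is highest near the end by which genes were turned.

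Place in the gene shifted with gene length. In genes under 2 kb, 63 of 159 body domains touched H3K4me3 (39.6%). In genes over 6 kb, 13 of 171 touched it (7.60%). The steps of 20% from the H3K4me3-bearing end held 5.03, 9.43, 17.0, 28.9 and 39.6% in genes under 2 kb, and 13.5, 28.1, 24.0, 18.1 and 16.4% in genes over 6 kb. H3K4me3 had a nearly constant length (median 750 bp in host genes under 2 kb and 900 bp in those over 6 kb), so it took a larger part of short genes. Domain width did not follow gene span: its median was 300 bp in each span class, and the Spearman correlation of width and span over the 1109 domains was 0.02, a description over domains of the same lists.

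H3K4me3 itself had a similar length in host genes and in genes without any 5mC, except in the longest genes. Host genes had a median of 828.5 bp of H3K4me3 (quartiles 673 and 1050 bp), and the 14571 genes that met the same criteria with 0 bp of 5mC had 791 bp (quartiles 652 and 1028 bp). In genes over 6 kb the medians were 900 bp in hosts and 779 bp in genes without 5mC. There 23.2% of the genes at or above the class median of H3K4me3 length were hosts (exact interval 19.0 to 27.7%), against 12.6% of those below it (9.46 to 16.4%). This class has no upper limit of span, and spans were not compared between these groups of genes. In the shorter classes the exact intervals of these shares overlapped. The H3K4me3 score per bp was 1.36 in host genes and 1.397 in genes without 5mC. In genes of 3 to 4 kb, where spans are alike, H3K4me3 covered 34.2% of host genes and 39.4% of genes without 5mC between 25 and 30% of the span. Between 35 and 40% it covered 19.4 and 17.3%. Body 5mC covered 19.0% and 22.5% of the host genes at these places.

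Host genes were long. Their median span was 3148 bp (quartiles 2348 and 4527 bp), against 2257 bp (quartiles 1591 and 3204 bp) in genes without 5mC. A span of at least 4 kb was found in 324 host genes (32.02%), where 14.9% of all 16312 genes meeting the criteria had one. A longer gene offers more room for a domain wholly inside it, so a longer span is in part a result of the rule. Of all genes meeting the criteria, 6.20% held a body domain. The share was 2.48% of genes under 2 kb (158 of 6383), 6.22% at 2 to 3 kb, 8.73% at 3 to 4 kb, 11.2% at 4 to 6 kb and 17.9% over 6 kb (136 of 760).

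Per length, the classes were closer. There were 1.78 body domains per 100 kb of gene span in genes under 2 kb and 2.62 at 2 to 3 kb. In the longer classes there were 2.72, 2.77 and 2.75. Counting the domains that did not touch H3K4me3, per 100 kb of span outside H3K4me3, there were 2.53 in genes under 2 kb. In the longer classes there were 2.999, 3.25, 3.05 and 2.85, in order of span. Both densities were thus lowest in the shortest genes, and neither was highest over 6 kb. Neither density takes off the width of the domain, which must fit inside the gene and takes a larger part of a short gene. The low values under 2 kb can therefore be in part a result of the rule.

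**Figure D4:**
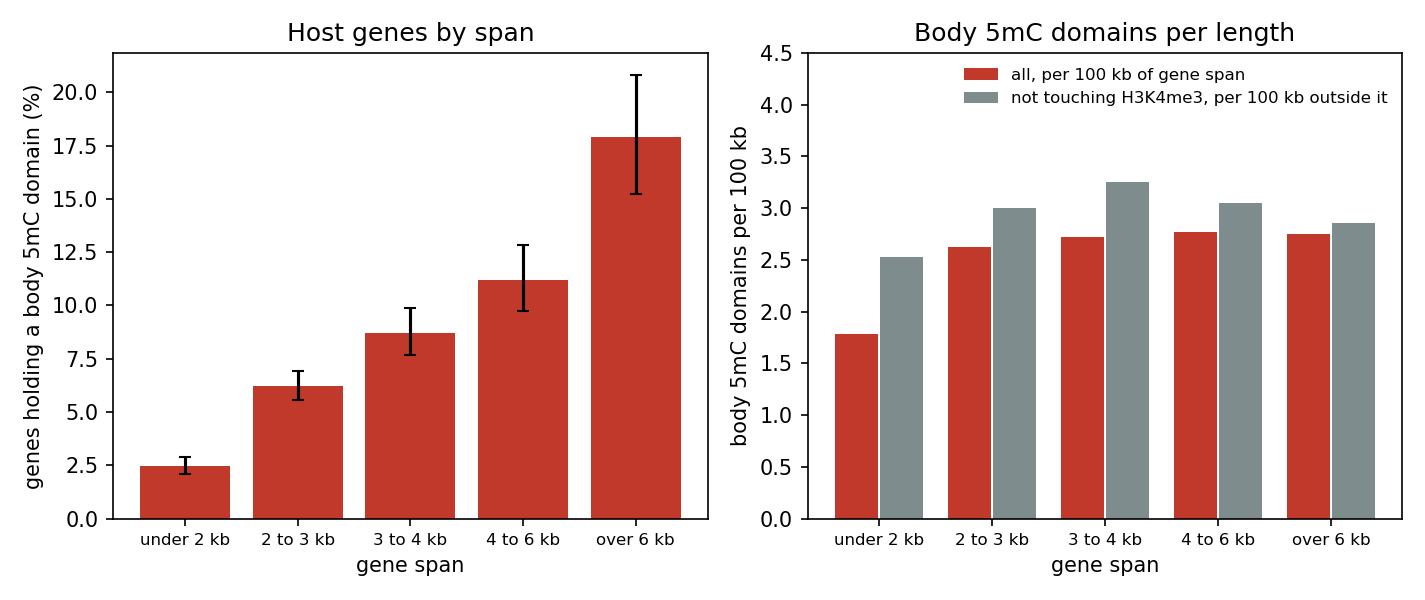
Left: share of genes meeting the H3K4me3 and H3K27 criteria that hold a body 5mC domain (percent) by gene span, with exact 95% intervals that cover counting error only; it goes from 2.48% under 2 kb to 17.9% over 6 kb. Right: body 5mC domains per 100 kb of gene span (red) and those not touching H3K4me3 per 100 kb of span outside it (grey) by gene span; the first ranges over 1.78 to 2.77, the second over 2.53 to 3.25, and both are lowest under 2 kb.

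Host genes and genes without 5mC had similar mRNA levels. The median coverage of host genes, 9.90, had quartiles of 5.58 and 18.1, and that of genes without 5mC, 10.3, had quartiles of 5.31 and 21.1, a ratio of medians of 0.965. The order-statistic interval of the host median, 9.36 to 10.7, held the median of genes without 5mC. Genes with 5mC that crossed a gene end, or lay otherwise outside the rule, had a median of 10.3 (729 genes).

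Over genes of all spans together, high coverage values were less frequent among host genes. A coverage over 30 was found in 112 host genes (11.1%), 120 genes with other 5mC (16.5%) and 2487 genes without 5mC (17.1%), where 16.7% of all genes meeting the criteria had one. The coverage below which 90% of the genes lay was 32.7 in host genes and 47.7 in genes without 5mC, while that for 10% was 2.89 and 2.79. By quintiles of coverage over all genes meeting the criteria, from the lowest to the highest, 5.91, 6.65, 6.62, 7.17 and 4.66% were hosts. The highest quintile, from 25.6 upward, had an exact interval of 3.96 to 5.44%, and its genes were also the shortest, with a median span of 1925 bp. Within span classes the pattern was not uniform. In the highest quintile 6.50% of genes of 2 to 3 kb were hosts, where the other quintiles had 5.47 to 7.87%. At 3 to 4 kb it was 9.59% (others 7.09 to 10.2%) and at 4 to 6 kb 13.4% (others 8.62 to 12.7%). Under 2 kb it was 1.55% (others 1.75 to 3.77%), and over 6 kb 8.89%, or 4 of 45 genes (others 15.1 to 20.0%). Per 100 kb of gene span, the highest quintile held 2.25 body domains and the others 2.41 to 2.78.

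Within span classes the ratio of medians lay on both sides of 1. In genes under 2 kb, hosts had a median coverage of 9.25 (158 genes) and genes without 5mC 11.5 (5895 genes). At 2 to 3 kb the values were 9.04 and 9.99. At 3 to 4 kb they were 11.4 and 9.75, at 4 to 6 kb 11.1 and 9.61, and over 6 kb 9.38 and 8.83. The ratios were 0.803, 0.905, 1.17, 1.15 and 1.06. The interval of each host median held the median of genes without 5mC of its class. Fewer cells with a transcript and less transcript per cell cannot be told apart in whole leaves.

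**Figure D5:**
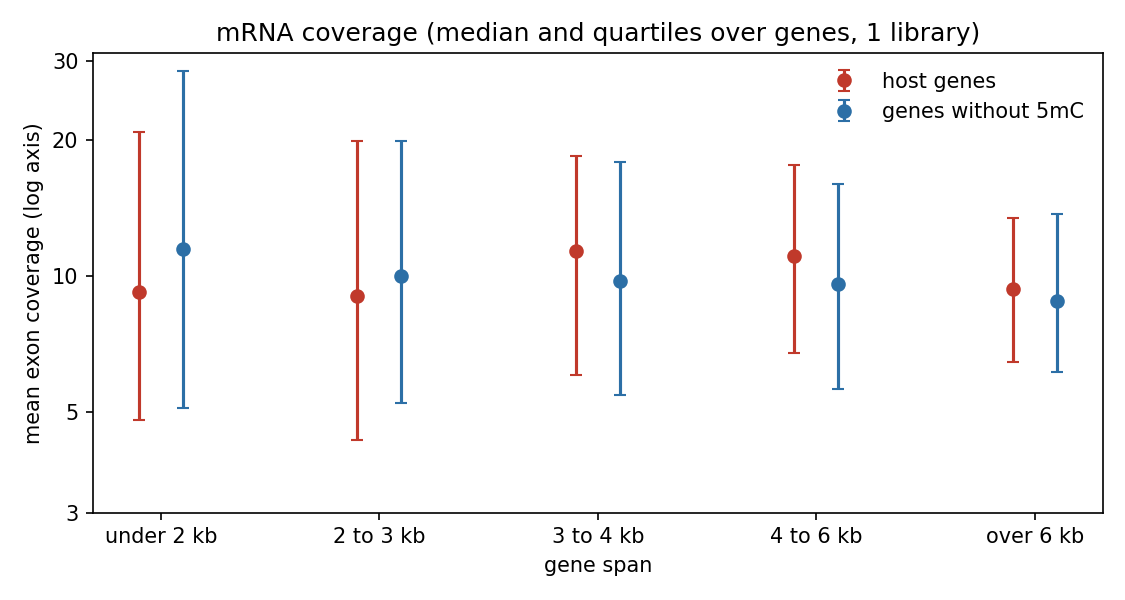
Mean exon coverage of the mRNA library (vertical axis, log scale) by gene span for host genes and genes without 5mC; points are medians and bars quartiles over genes. The medians lie between 9.04 and 11.4 in host genes and between 8.83 and 11.5 in genes without 5mC, and the quartiles overlap in every class.

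By rank, the width and the score of a body domain followed the mRNA coverage of its gene little. The Spearman correlation with coverage was -0.04 for width and 0.06 for score per bp over the 1109 domains, some of which share a gene. By quintiles of coverage over all genes meeting the criteria, the median width was 450 bp in the lowest and 300 bp in the others. The median score per bp was 1.33 in the highest quintile and 1.17 to 1.23 in the others. Hosts of domains of 750 bp or more had a median coverage of 7.64, and those of domains of 150, 300 and 450 to 600 bp had 9.88, 10.4 and 9.81. Host genes with a domain touching H3K4me3 had a median coverage of 10.1 (221 genes), against 9.88 in the other 791. Domains in the first 20% of the free room lay in genes with a median coverage of 7.08 (quartiles 4.20 and 13.4). In the later steps the medians were 8.87 to 10.9.

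Single host genes spanned the range of coverage. The highest was AL5G27100 (scaffold 5, 13885300 to 13887550), with a coverage of 382 and 1 body domain of 450 bp that touched H3K4me3. It was followed by AL4G24930 (scaffold 4, 14502362 to 14505613), with a coverage of 325 and 1 domain of 300 bp between 2 stretches of H3K4me3. The lowest above exactly 1 were AL7G32630 (scaffold 7, 9619932 to 9622305), at 1.12, and AL3G40600 (scaffold 3, 12982194 to 12987762), at 1.15. AL7G32630 had 1 domain of 750 bp with a score per bp of 2.90, touching H3K4me3. AL3G40600 had 2 domains, of 450 and 150 bp, with 2.47 and 0.80 per bp, both beyond H3K4me3. These 4 genes show the range and were chosen among host genes by coverage, not by the width, score or place of their 5mC.

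Most host genes held a single body domain. There were 928 with 1 domain, 74 with 2, 8 with 3, 1 with 4 and 1 with 5. The 84 with 2 or more (8.30%) had a median span of 4977 bp and a median coverage of 8.30, against 3032 bp and 10.1 in those with 1. Among host genes under 2 kb 1 had several, and among those over 6 kb 29 did (21.3%). Neighbouring domains of the same gene stood a median of 750 bp apart (97 gaps, quartiles 450 and 1200 bp). In 22 of the 97 the gap was 300 bp, the smallest gap between any 5mC domains of the list, and such pairs would count as 1 domain under a wider joining distance.

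The gene with 5 body domains spanned 12.6 kb on scaffold 8 (12877169 to 12889723) and had a coverage of 9.14. Its domains of 750, 150, 750, 300 and 450 bp all lay between separate H3K4me3 domains. The gene with 4 spanned 2760 bp on scaffold 1 (2397624 to 2400383), with a coverage of 4.84. Its domains of 150, 150, 150 and 300 bp followed each other beyond H3K4me3, with gaps to it of 450, 900, 1350 and 1800 bp. The gene ranked next, on scaffold 6 (20780202 to 20784314), had 3 domains over 40.1% of its 4113 bp, 300 bp of H3K4me3 and a coverage of 1.28. These genes are examples of strings of domains; that on scaffold 6 had the largest summed width among the 8 genes with 3 domains, whose coverage ran from 1.28 to 23.5 with a median of 11.1.

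Host genes occurred at a like rate on the 8 main scaffolds. The share of genes meeting the criteria that held a body domain was 5.56% (scaffold 7) to 6.36% (scaffold 3), and all 8 exact intervals overlapped. On the smaller scaffolds it was 13.7% (46 of 335, exact interval 10.2 to 17.9%), against 6.05% on the main ones together. Other 5mC was also more frequent there, in 15.8% against 4.23% of such genes. The 46 host genes of the small scaffolds had a median coverage of 6.11, beside 5.92 in genes without 5mC on the same scaffolds. Median domain width there was 450 bp, against 300 bp on the main scaffolds.

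The share of host genes varied less with the distance to H3K27me1 than the share of genes with other 5mC. By distance of the gene to the nearest H3K27me1 domain, 6.73% of genes were hosts under 1 kb, 6.61% at 1 to 5 kb, 6.32% at 5 to 20 kb, 4.67% at 20 to 50 kb and 5.24% at 50 kb or more. Over the same distances, the share with other 5mC was 11.1, 5.23, 3.02, 1.91 and 2.82%. The median distance to H3K27me1 was 6189 bp for host genes, 3029 bp for genes with other 5mC and 7610 bp for genes without 5mC. For H3K27me3 the medians were 4928 bp for host genes, 4933 bp for genes with other 5mC and 5101 bp for genes without 5mC.

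A larger share of host genes than of genes without 5mC had 5mC just outside. Within 1 kb of either end, 5mC was found beside 419 host genes (41.4%) and 4127 genes without 5mC (28.3%). Among genes with other 5mC, it was found beside 722 of 729. That value is nearly fixed by the definition of the group, because 5mC that crosses a gene end also lies just outside. A 5mC domain that crosses a gene end takes a gene out of the group without 5mC, whereas a host gene with such a domain stays a host. The difference can therefore be in part a result of how the groups were defined. Neighbouring host genes were not common. Where 2 successive listed genes both met the criteria, the second was a host in 45 of 690 cases after a host (6.52%, exact interval 4.80 to 8.63%) and in 648 of 10735 cases after a gene that was not (6.04%, exact interval 5.59 to 6.50%).

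Near the limits of the rule the values were as follows. Genes with 200 to 299 bp of H3K4me3 and no H3K27 mark held 5mC wholly inside in 9 of 93 cases, and those 9 genes had a median coverage of 2.40. Genes with 100 to 199 bp, just outside the rule, did so in 10 of 116 cases, and those 10 genes had a median coverage of 1.39. With 0 bp of H3K4me3 it was 129 of 2114 genes (6.10%), and those 129 genes had a median coverage of 2.09. At the gene ends, 92 body domains lay within 150 bp of an end, with a median width of 450 bp and a score per bp of 1.47. The 37 5mC domains that reached up to 50 bp outside 1 gene meeting the criteria had 450 bp and 1.203 per bp, and the 89 that reached 51 to 150 bp outside had 300 bp and 1.30 per bp. The 636 that reached farther out had a median width of 900 bp.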

How the data were processed

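Domains and genes were used as deposited. Bowtie and SICER, with no version, are named in the submitters' processing notes. The genome build, the caller's settings and any pooling of replicates are not stated in the sources used here. The deposited score per domain is a whole number whose meaning is not stated. The deposited coverage signal is a mean exon coverage per gene, per the file's name, with no stated normalization and a lowest value of 1. Depth is unknown for all libraries. Per the labels, each DNA library took 20 ng and the RNA library 1 µg. Domain starts counted from 0 were turned into positions counted from 1. None of the 24268 gene identifiers matched the 34365 genes of the RefSeq table of assembly v.1.0 (0 matches).

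Overlaps, medians, quartiles and exact (Clopper-Pearson) or order-statistic 95% intervals were computed with Python 3.11.15, pandas 2.3.3, numpy 2.4.6 and scipy 1.17.1. Intervals cover counting error only. Genes and domains are not replicates, so no p-value was computed. Membership and place were tested on simulated data. Named regions were the 3 widest with ties, the 3 with the highest score per bp of at least 300 bp, the 3 genes with the most domains (ties by summed domain width), and the 2 genes with the highest and the 2 with the lowest coverage above 1. The members, groups and classes were chosen with earlier results of these data known.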

Additional observations from a re-analysis of the deposited data

How the results depend on the processing

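No paired analysis was possible because each mark has 1 list for its 2 libraries and no result comes from a test; for the same reason no replicate could be left out. Of 102 values recomputed under other settings, 79 stayed within the interval of the reported value (for counts, within 1.5 times) and 23 did not. The top 50% of 5mC domains by score, which increases with width, left 287 domains in 281 genes, with a median width of 750 bp, 1.67 per bp, a host span of 2977 bp, 43.2% touching H3K4me3 and 50.5% beyond it. The top 50% of H3K4me3 domains left 700 domains in 649 genes with a median coverage of 11.9, and 73.6% lay beyond H3K4me3. With 5mC domains of at least 300 bp, the median width was 450 bp by construction, 23.1% touched H3K4me3 and 67.6% lay beyond it. With at least 50% of the domain inside the gene, the host span was 3024 bp, 23.4% touched and 66.7% lay beyond. In genes with H3K4me3 at exactly 1 end, 77.9% lay beyond. The ratio of median coverage to genes without 5mC was 0.803, 0.905, 1.17, 1.15 and 1.06 in the span classes from under 2 kb to over 6 kb, and 0.917 to 0.988 under the other settings. The cause of these changes was not tested, apart from those named as built into the setting. The share of domains in the free room away from its first and last 20% was 65.2 to 67.5% under each of 8 settings. A setting added after the data were seen, at least 150 bp from both gene ends, left 1021 domains, and the 7 values recomputed with it stayed in their intervals. Unknown depth limits how many weakly methylated genes could appear as hosts.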
